A study of Mus musculus with 150 samples.

Results

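The lungs compared here came from aged male mice of 2 lines that both lack the mouse enzyme CYP2F2 and that breathed air alone until 104 weeks. The 11 arrays were those labelled with a dose of 0 ppm and 104 weeks, 5 from transgenic mice (TG, labelled CYP2F2(-/-) + 2F1,SA13,2B6-transgenic) and 6 from knockout mice (KO, labelled CYP2F2(-/-)), of 150 arrays in the whole study. Wild-type mice (WT) in air, 4 at 104 weeks, served as the reference for both. All 3 kinds were C57Bl/6 males from Taconic, given only as adult in the age label, and RNA came from whole lung, 1 array per mouse. Inhalation sessions lasted 6 h, on 5 days of each week, and the mice were killed on the morning after the last session, with no hour given. The protocol text speaks of 1 or 4 weeks of exposure, while each sample's own label gives 104 weeks, which was used. Since KO and TG share the missing Cyp2f2, the difference between them concerns whatever else sets the 2 groups apart, on the side of either line. The sources used here name neither the promoter that drives the transgene nor how the lines were bred.

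CYP2F2 is a cytochrome P450 of club cells, the secretory cells of the small airways, where it oxidises inhaled aromatic compounds such as naphthalene and styrene. CYP2F1 and CYP2B6 are human P450 enzymes, relatives of the mouse CYP2F2 and CYP2B10, and mice with human P450 genes in place of their own are used to ask whether a toxic effect needs the mouse enzyme. Air controls of such lines show how far the lines differ with no exposure at all.

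The arrays were the Affymetrix HT MG-430 PM type, and each value is a log2 intensity, so a difference of 1 is a doubling. The 11 arrays had medians of 4.08 to 4.21, and the median correlation of an array with the others of its group was 0.982 to 0.991. KO replicate 6 and WT replicate 1 carry a note of a tumour, and tumour tissue was not assayed apart from the rest of the lung. The 11 arrays lay in different wells, KO in rows E and F and TG in rows G, H and A, so well row and strain cannot be told apart. Of the styrene arrays used below for comparison, styrene and air differed in 7527 genes in WT (48%) and 6176 in KO (39.4%), but in 0 in TG (0%; limma, adjusted p under 0.05). In a score of the position along the mean difference between styrene and air arrays of WT and outbred CD-1 mice, TG styrene arrays lay at -0.14 to 0.42 and the 5 KO styrene arrays at 0.23 to 1.24, against -0.11 to 0.64 in TG air. The styrene arrays of TG therefore lay with air arrays, as did 1 of KO, replicate 5.

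The label of the knockout was checked first. In TG air lungs Cyp2f2 stood at 11.97, 12.2, 11.92, 12.16 and 12.05, and in KO air lungs it ran from 11.99 through a median of 12.14 to 12.3. WT lungs read 13.42, 13.37, 13.36 and 13.39. KO and TG overlapped and both lay below every WT lung. The difference of TG from KO was -0.10 (SE 0.11, adjusted p = 0.903), while that of KO from WT was -1.22, or 2.34-fold (adjusted p = 1.06e-14), and that of TG from WT -1.32 (adjusted p = 1.01e-15). The sources used here do not say whether the deletion covers the probed sequence, and no probe set is named for 2F1 or 2B6 in the annotation used. The mouse relatives Cyp2a5 (0.22, adjusted p = 0.96) and Cyp2b10 (-0.06, adjusted p = 0.954) did not pass the test. None of the 18 P450 and epoxide genes and none of the 16 club cell markers tested passed it either. Scgb1a1, the secretory protein that defines club cells, averaged 13.83 in TG and 13.79 in KO lungs, so the labelled tissue carried its airway marker at a high level in both lines.

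TG and KO lungs in air differed in 18 of 15695 genes, 0.115% of those tested, with 13 higher (0.0828%) and 5 lower (0.0319%) in TG. Securin (Pttg1), which keeps sister chromatids from separating until anaphase, differed most among the called genes, 8.80-fold. Folds of the 18 ran from 1.25 to 8.80, 3 of them above 2-fold. After each array was centred on its median, 10 were called, 6 higher and 4 lower. Over all genes the median difference was 0.02, and 1284 genes (8.18%) had an unadjusted p under 0.05. The values of the 5 TG and 6 KO lungs did not overlap for 15 of the 18, against 143 of all genes tested (0.911%). In whole lung, fewer cells of a type and less RNA per cell cannot be told apart, which holds for every difference below.

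These 18 genes were set beside the same strains in arrays that are not shared, namely air at 26 to 78 weeks (14 TG and 14 KO lungs) and styrene at 104 weeks (6 TG and 5 KO). At 26 to 78 weeks TG and KO differed in 21 genes (0.134%). Of these, 7 were among the 18, which is 38.9% of the list of 104 weeks and 33.3% of the list of earlier weeks, and all 7 had the same direction. The 7 were Pttg1, Tceanc2, Cap1, Zfp691, Cd59a, Cfl2 and Mat2b. The other 11 were called at 104 weeks and not at 26 to 78 weeks. In styrene at 104 weeks, where TG and KO differed in 41.4% of all genes, 13 of the 18 were called, 9 of them in the same direction. The change of the strain difference from 26 to 78 weeks to 104 weeks was itself tested for all genes and passed for 0, 0% (limma; 757 at an unadjusted p under 0.05, 4.82%), so the 11 are not shown to be particular to the late time.

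**Figure D1:**
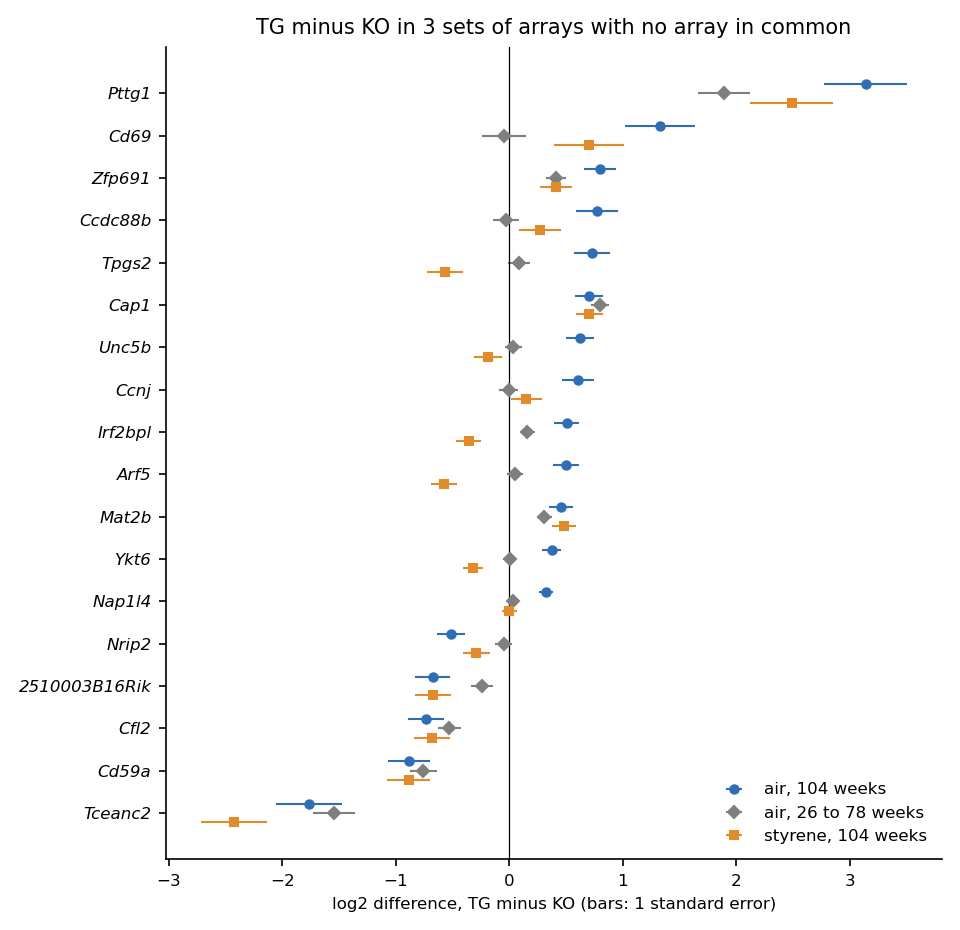
The log2 difference of TG from KO (horizontal axis) for the 18 called genes, with bars of 1 standard error, in 3 sets of arrays that share none. Pttg1, Cap1, Zfp691 and Mat2b are higher and Tceanc2, Cd59a and Cfl2 lower in all 3 sets, while Tpgs2, Irf2bpl, Arf5 and Ykt6 are higher in air but lower in styrene at 104 weeks.

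The called genes include neighbours. Mat2b lies within 5 Mb of Pttg1, Zfp691 lies within 5 Mb of both Cap1 and 2510003B16Rik, and Cd69 lies within 5 Mb of Nrip2. The 250 bases before the start are shown for the 4 neighbours that were called both at 104 weeks and at 26 to 78 weeks, all 4 higher in TG than in KO. The sequences are RefSeq's, build GRCm38.p6, each on the minus strand, 5′ to 3′, for Pttg1 at chr11:43425982-43426231, Mat2b at chr11:40692683-40692932, Cap1 at chr4:122886077-122886326 and Zfp691 at chr4:119174196-119174445. Capitals mark matches, on either strand, to a CCAAT box (CCAAT), a GC box (GGGCGG), a cell cycle homology region (TTTGAA) or an E-box (CACGTG). Overlapping matches were allowed.
Pttg1: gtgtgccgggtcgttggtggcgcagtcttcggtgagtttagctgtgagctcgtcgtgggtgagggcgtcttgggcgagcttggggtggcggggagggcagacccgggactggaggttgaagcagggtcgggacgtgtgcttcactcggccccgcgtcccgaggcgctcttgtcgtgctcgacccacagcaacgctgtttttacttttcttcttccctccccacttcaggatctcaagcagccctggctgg
Mat2b: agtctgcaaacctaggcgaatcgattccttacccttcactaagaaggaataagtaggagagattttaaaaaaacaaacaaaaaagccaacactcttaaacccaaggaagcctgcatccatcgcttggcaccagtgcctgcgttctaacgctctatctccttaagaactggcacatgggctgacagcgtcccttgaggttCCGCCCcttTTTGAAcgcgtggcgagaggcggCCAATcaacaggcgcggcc
Cap1: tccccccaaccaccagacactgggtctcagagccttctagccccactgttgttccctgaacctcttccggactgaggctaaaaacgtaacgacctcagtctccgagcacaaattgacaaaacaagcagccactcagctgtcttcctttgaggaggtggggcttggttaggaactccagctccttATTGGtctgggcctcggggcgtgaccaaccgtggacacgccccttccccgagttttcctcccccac
Zfp691: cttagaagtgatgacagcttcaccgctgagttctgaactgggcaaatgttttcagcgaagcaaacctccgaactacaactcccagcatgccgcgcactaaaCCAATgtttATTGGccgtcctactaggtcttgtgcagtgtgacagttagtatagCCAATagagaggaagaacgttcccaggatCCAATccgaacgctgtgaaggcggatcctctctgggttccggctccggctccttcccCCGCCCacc
Pttg1 had no match to any of the 4 motifs in this window. Mat2b had 1 CCAAT, 1 GGGCGG and 1 TTTGAA match, Cap1 1 CCAAT match, and Zfp691 4 CCAAT matches and 1 GGGCGG match. Among 32851 promoters of the same length, 33.8% hold CCAAT, 32.7% GGGCGG, 16% TTTGAA and 6.02% CACGTG. No motif was in all 4 windows, and the matches describe letters only.

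In TG lungs Pttg1 read 11.62, 11.89, 11.69, 11.86 and 11.74, and KO lungs ran from 8.36 through a median of 8.62 to 8.91. WT lungs read 11.82, 11.57, 11.9 and 11.9. Every TG lung lay with WT and every KO lung lay far below, with no overlap. TG was 3.14 higher than KO (SE 0.36, adjusted p = 4.11e-10), KO was lower than WT by 3.18 (adjusted p = 1.43e-09), and TG differed from WT by -0.04 (adjusted p = 0.983). The other probe sets of Pttg1 gave 2.00 and 1.40. At 26 to 78 weeks the difference was 1.89 (adjusted p = 8.45e-10), and in styrene at 104 weeks 2.49 (adjusted p = 7.6e-07). The earlier air lungs fell in separate ranges within a line, a split described after the values were seen. Of 14 KO lungs, 11 read 8.64 to 9.36 and 3 read 11.04 to 11.28, and of 14 TG lungs 13 read 11.01 to 11.88 and 1 read 8.75. All 7 WT lungs of those weeks read 11.44 to 11.84.

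Mat2b encodes the regulatory subunit of methionine adenosyltransferase, the enzyme that makes S-adenosylmethionine. It read 8.8, 9.06, 8.92, 8.9 and 8.79 in TG lungs and ran from 8.22 through 8.41 to 8.72 in KO lungs, and WT lungs read 8.92, 8.75, 8.78 and 9.08. As for Pttg1, TG lay with WT and KO below, without overlap between TG and KO. The difference of TG from KO was 0.46 (SE 0.11, adjusted p = 0.0411), with 0.31 at 26 to 78 weeks (adjusted p = 0.00964) and 0.48 in styrene (adjusted p = 0.000237). Against WT, KO differed by -0.44 (adjusted p = 0.0727) and TG by 0.01. The call held without TG replicate 1 or KO replicate 1 and was lost in the 9 other fits that leave out 1 lung, with adjusted p up to 0.123. Of 29 tested genes within 5 Mb of Pttg1, Mat2b was the 1 called (3.45%, against 0.115% of all genes). Thg1l, a tRNA guanylyltransferase gene on the other side of Pttg1, was chosen after its values were seen. It read 3.98 to 4.38 in TG, 3.33 to 3.82 in KO and 3.82 to 4.07 in WT lungs, and just missed the threshold (0.73, adjusted p = 0.0596).

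**Figure D2:**
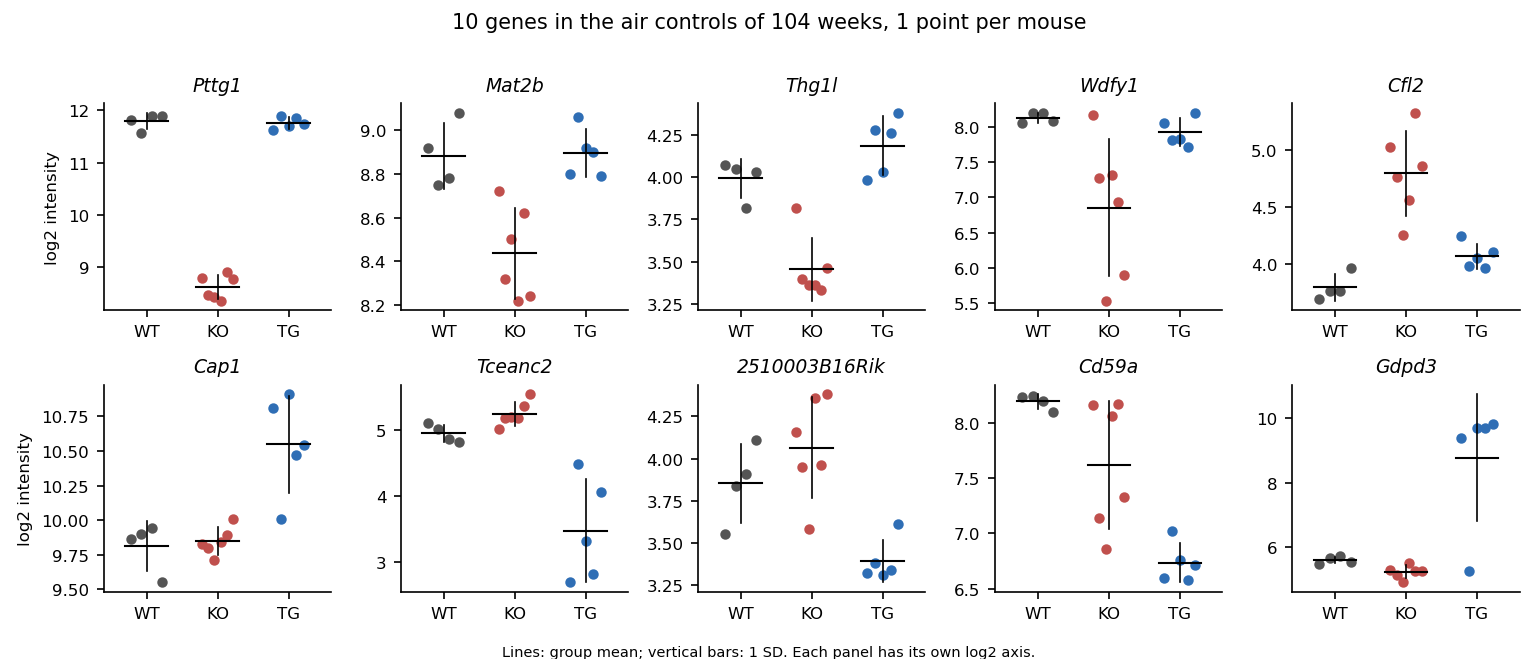
Log2 intensity of 10 genes in the air lungs of 104 weeks, 1 point per mouse, with the group mean as a horizontal line and 1 SD as a vertical bar. In the upper row most KO lungs stand apart from WT and TG, with Pttg1 at 8.36 to 8.91 in KO against 11.57 to 11.9 in both others, and in the lower row most TG lungs stand apart from WT and from KO, with overlap in 2510003B16Rik, Cd59a and Gdpd3.

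In Cfl2, the cofilin of muscle that severs actin filaments, KO lay above both other lines by a called amount. TG lungs read 4.24, 3.98, 4.05, 3.96 and 4.1, KO lungs 4.25 to 5.33 with a median of 4.81, and WT lungs 3.69, 3.76, 3.76 and 3.96. TG and KO ranges met at their ends without crossing. TG was lower by 1.66-fold (-0.73, SE 0.16, adjusted p = 0.0189), and KO was 1.01 above WT (adjusted p = 0.000108), while TG lay 0.27 above WT (adjusted p = 0.572). The difference of TG from KO was -0.53 at 26 to 78 weeks (adjusted p = 0.00104) and -0.68 in styrene (adjusted p = 0.00044). Leaving out 1 lung gave -0.84 to -0.63 and ended the call in 6 of 11 fits, those without TG replicate 2, 3, 4 or 5 or KO replicate 1 or 5.

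Wdfy1, which encodes an endosomal protein with a FYVE domain, had the same shape as Pttg1 but missed the threshold at 104 weeks (1.07, adjusted p = 0.0507) with a call at 26 to 78 weeks (1.26, adjusted p = 7.9e-09). TG lungs read 8.06, 7.82, 7.83, 7.72 and 8.19, WT lungs 8.06 to 8.19, and KO lungs 8.16, 7.27, 5.54, 7.32, 6.94 and 5.9. KO replicate 1 lay within the TG range and the other 5 below it. KO lay below WT by 1.27 (adjusted p = 0.0111). The other probe sets of Wdfy1 gave 0.93, 1.05 and 0.40 for TG minus KO. Of 14 fits with other settings, 5 called Wdfy1 and 9 did not. With 1 lung left out, the difference of TG from KO ran from 0.81 to 1.33, with adjusted p from 0.00392 to 0.314, and was called in 3 of 11 fits, those without KO replicate 1, 2 or 4.

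Tceanc2, a gene for a protein with a transcription elongation factor domain, was lower in TG than in both other lines. TG lungs read 2.7, 4.49, 3.33, 2.83 and 4.06, KO lungs ran from 5.02 through 5.2 to 5.54, and WT lungs read 5.11, 5.01, 4.87 and 4.82. All 5 TG lungs lay below every KO and WT lung, and they spread over a wider range than either. TG was lower than KO by 3.40-fold (-1.77, SE 0.29, adjusted p = 0.000118) and lower than WT (-1.47, adjusted p = 0.00969), and KO differed from WT by 0.30 (adjusted p = 0.927). The difference was -1.55 at 26 to 78 weeks (adjusted p = 5.35e-10) and -2.42 in styrene (adjusted p = 2.24e-09).

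Cap1, a cyclase-associated protein that recycles actin monomers, was higher in TG than in KO and WT. TG lungs read 10.81, 10.01, 10.91, 10.47 and 10.54, KO lungs ran from 9.71 through 9.84 to 10.01, and WT lungs read 9.86, 9.9, 9.94 and 9.55. TG replicate 2 lay at the top of the KO range and the other 4 TG lungs well above it. TG was 1.63-fold higher than KO (0.70, SE 0.12, adjusted p = 0.000331) and 0.74 above WT (adjusted p = 0.000665), and its other probe set gave 0.60. The difference was 0.80 at 26 to 78 weeks (adjusted p = 1.93e-14) and 0.70 in styrene (adjusted p = 9.31e-06).

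Zfp691, a zinc finger gene within 5 Mb of Cap1, read 4.82, 4.96, 4.88, 5.03 and 4.68 in TG lungs, 3.54 to 4.46 with a median of 4.14 in KO and 4.09, 4.05, 4.57 and 4.77 in WT. Every TG lung lay above every KO lung, and WT lay between and overlapped TG. TG was 0.80 above KO (SE 0.14, adjusted p = 0.000431), with 0.41 both at 26 to 78 weeks (adjusted p = 0.00824) and in styrene (adjusted p = 0.0144), and neither TG nor KO differed from WT by a called amount (0.51 and -0.29). The neighbouring 2510003B16Rik, a gene of no function known here, read 3.32, 3.38, 3.31, 3.34 and 3.61 in TG and 3.58 to 4.38 in KO lungs. The ranges overlapped by TG replicate 5, and TG was lower by 0.68 (adjusted p = 0.0366). That call held only without TG replicate 5, KO replicate 2 or KO replicate 3, and in the 8 other fits the adjusted p reached 0.107. Of 118 tested genes within 5 Mb of Zfp691, Cap1 and 2510003B16Rik were called (1.69%). Hyi, a putative hydroxypyruvate isomerase gene, and Med8, a subunit of the Mediator complex, lie within 5 Mb of Cap1 and were called at 26 to 78 weeks (0.73, adjusted p = 0.000475, and -0.85, adjusted p = 1.19e-09). At 104 weeks they kept the sign without passing (0.82, adjusted p = 0.0892, and -0.62, adjusted p = 0.1).

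**Figure D3:**
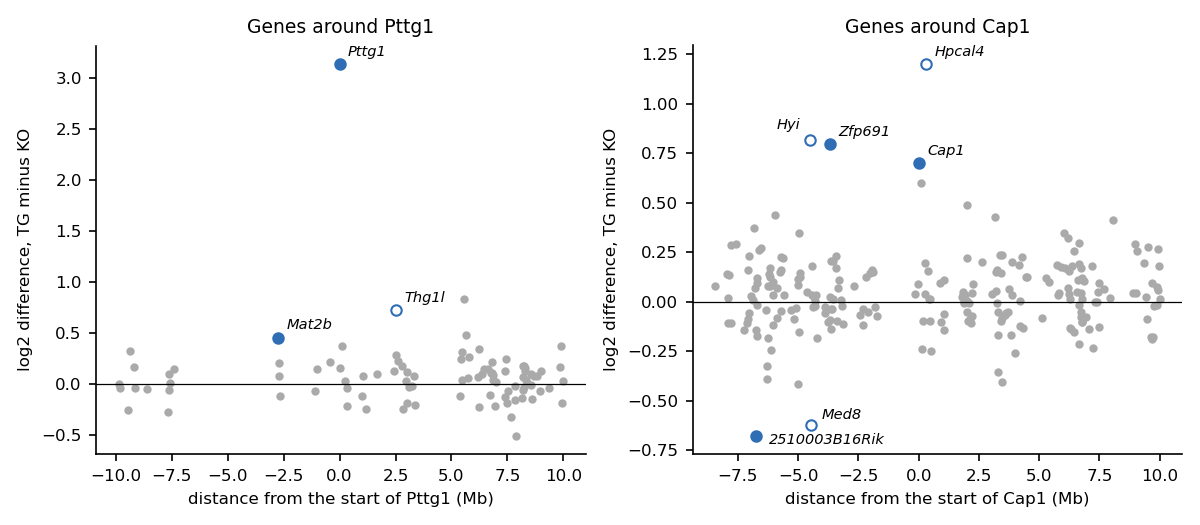
The log2 difference of TG from KO at 104 weeks in air for the tested genes around Pttg1 and Cap1, against distance from the start of each in Mb, in GRCm38.p6. Filled blue points were called, open blue points are other labelled genes, not called, and grey points are the rest, most of them close to 0.

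Cd59a, which keeps the complement membrane attack complex from forming on the cell's own surface, was lower in TG. TG lungs read 6.6, 7.02, 6.76, 6.58 and 6.71, KO lungs 8.16, 7.14, 6.86, 8.06, 8.17 and 7.33, and WT lungs 8.23, 8.24, 8.2 and 8.1. Of the KO lungs 3 lay at the WT level and 3 nearer TG, a split described after the values were seen, so that TG and KO overlapped. The 14 KO lungs of 26 to 78 weeks ran from 6.53 through a median of 7.49 to 8.12. They did not show that gap, with values such as 7.41, 7.57 and 7.7 inside it. TG was lower than KO by 1.85-fold (-0.88, SE 0.19, adjusted p = 0.0147) and lower than WT (-1.45, adjusted p = 8.03e-07), and KO differed from WT by -0.57 (adjusted p = 0.347). The other probe set gave -0.87, and the difference was -0.76 at 26 to 78 weeks (adjusted p = 6.12e-06) and -0.89 in styrene (adjusted p = 0.000132). Of 15 complement genes tested, Cd59a was the 1 called (adjusted p of Serping1, the C1 inhibitor, 0.378), and the median over the list was 0.13. Without KO replicate 1, 4 or 5, the 3 at the WT level, or without TG replicate 4, the call was lost (adjusted p up to 0.0834).

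Gdpd3, a lysophospholipase D gene, showed the widest difference among genes not called, and was looked at after its values were seen. TG lungs read 9.39, 5.27, 9.69, 9.71 and 9.84, KO lungs 4.91 to 5.52 and WT lungs 5.49 to 5.71. TG replicate 2 lay with KO and WT and the other 4 far above. The difference was 3.55 (SE 0.89, adjusted p = 0.0828), and with 1 lung left out it ran from 3.28 to 4.42 (adjusted p from 0.0117 to 0.249), with a call in 1 of 11 fits, that without TG replicate 2. At 26 to 78 weeks 7 of 14 TG lungs read 9.29 to 10.98 and 7 read 5.57 to 6.2, while 14 KO lungs read 5.33 to 6.04 and 7 WT lungs 5.07 to 5.84.

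The 11 genes called at 104 but not at 26 to 78 weeks included 9 that were higher in TG. Unc5b, a netrin receptor of endothelium and neurons, read 5.42, 5.85, 5.44, 5.7 and 5.44 in TG lungs, 4.7 to 5.23 with a median of 4.9 in KO and 5.08, 4.83, 4.76 and 5.05 in WT. TG lay above both without overlap. The difference of TG from KO was 0.62 (SE 0.12, adjusted p = 0.00294), and TG lay 0.64 above WT (adjusted p = 0.00387). Its other probe set, dimmer, gave 0.34 and was not called. At 26 to 78 weeks the difference was 0.04 (adjusted p = 1), and in styrene -0.19 (adjusted p = 0.206). Air lungs of those earlier weeks averaged 5.34 in TG, 5.32 in KO and 5.43 in WT.

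Arf5, a small GTPase of Golgi traffic, read 8.34, 8.49, 8.25, 8.29 and 8.34 in TG and 7.62 to 7.97 with a median of 7.87 in KO lungs, again with no overlap (0.50, SE 0.11, adjusted p = 0.0248). WT lungs read 7.75, 7.78, 7.6 and 7.83, and TG lay 0.60 above them (adjusted p = 0.00337). Irf2bpl, a nuclear protein with a RING domain, read 9.07, 9.14, 8.99, 9.26 and 9.14 in TG and 8.42 to 8.89 in KO (0.51, SE 0.11, adjusted p = 0.018). Tpgs2, a subunit of the tubulin polyglutamylase complex, read 6.02, 6.44, 6.1, 6.36 and 6.31 in TG and 5.1 to 5.91 in KO (0.73, SE 0.16, adjusted p = 0.018). The other probe sets of Tpgs2 disagreed in sign, at 0.22, 0.29 and -0.24. The other probe set of Irf2bpl, dimmer, gave 0.31 and was not called. All 3 genes separated TG from KO fully, and in all 3 the difference had the opposite sign in styrene, at -0.58 for Arf5 (adjusted p = 4.14e-05), -0.36 for Irf2bpl (adjusted p = 0.00591) and -0.57 for Tpgs2 (adjusted p = 0.00261). Their calls in air were lost without TG replicate 4, TG replicate 5 or KO replicate 5, those of Arf5 and Tpgs2 also without TG replicate 2 or KO replicate 4, and that of Arf5 without KO replicate 2 (adjusted p up to 0.0997).

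Ykt6, a SNARE of vesicle fusion, read 8.76, 8.92, 8.84, 8.69 and 8.73 in TG and 8.28 to 8.52 in KO lungs (0.37, SE 0.09, adjusted p = 0.0411), with -0.32 in styrene (adjusted p = 0.00224). Its other probe set, dimmer, gave 0.40 and was not called. Nap1l4, a histone chaperone, read 8.23, 8.46, 8.24, 8.31 and 8.37 in TG and 7.81 to 8.16 in KO (0.32, SE 0.06, adjusted p = 0.00581). Ccdc88b, a protein of T cell activation, read 4.19, 4.31, 4.45, 4.65 and 4.48 in TG and 3.58 to 3.75 in KO (0.77, SE 0.18, adjusted p = 0.0496). These 3 genes lay higher in every TG lung than in any KO lung. So did Ccnj, a cyclin, at 5.19, 5.14, 5.53, 4.99 and 5.39 against 4.48 to 4.79 (0.61, SE 0.14, adjusted p = 0.0366). Nrip2, a nuclear receptor cofactor, was lower, at 3.38, 3.45, 3.17, 3.24 and 3.03 against 3.52 to 4.3 (-0.51, SE 0.12, adjusted p = 0.044), and its other, dimmer probe sets gave -0.22 and 0.27. At 26 to 78 weeks the differences of these 5 genes ran from -0.05 to 0.03. Over those weeks Nap1l4 averaged 8.33 in TG and 8.30 in KO lungs, and Ykt6 8.73 in both. Ccnj averaged 5.58 and 5.57, Ccdc88b 4.13 and 4.14, and Nrip2 3.52 and 3.58. With 1 lung left out, Ykt6 was called only without KO replicate 1 and Ccdc88b only without TG replicate 1. Ccnj was called in 4 such fits (without TG replicate 1, 2 or 4 or KO replicate 1), and Nrip2 in 4 (without TG replicate 1 or 2 or KO replicate 4 or 6).

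The difference between the styrene and air settings at 104 weeks was tested for these genes. It passed for 3942 of all genes (25.1%), and among the 11 for Arf5 (-1.08, adjusted p = 3.01e-06), Tpgs2 (-1.30, adjusted p = 5.57e-05), Irf2bpl (-0.87, adjusted p = 0.000102), Ykt6 (-0.69, adjusted p = 9.63e-05), Unc5b (-0.81, adjusted p = 0.000512) and Nap1l4 (-0.32, adjusted p = 0.00686). That test uses the air arrays by which the 11 had been called, so the choice of genes favoured a change against the call. WT styrene lungs lay above WT air lungs by 0.76 in Arf5 (adjusted p = 7.45e-07), 0.71 in Unc5b (adjusted p = 9.13e-06), 0.72 in Ccdc88b (adjusted p = 0.00229) and 0.43 in Irf2bpl (adjusted p = 0.00221). Of the 11 genes, 8 had the same sign in TG minus KO as in WT styrene minus WT air, against 58.6% of all genes, and 6 were called in WT, where 48% of all genes were, so that count lies near the background. In Arf5 the means were 7.74 in WT air, 8.50 in WT styrene, 7.84 in KO air, 8.52 in KO styrene, 8.34 in TG air and 7.95 in TG styrene. TG air thus lay near the styrene lungs of the other lines and TG styrene near their air lungs. The score along the styrene difference had a median of 0.20 in TG air and 0.22 in KO air lungs, and TG air replicates 2 (0.64) and 4 (0.48) lay above every KO and WT air array (at most 0.35), every TG styrene array (at most 0.42) and KO styrene replicate 5 (0.23). With this score as a covariate, a fit added after the data were seen, 25 genes were called, all 18 among them.

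**Figure D4:**
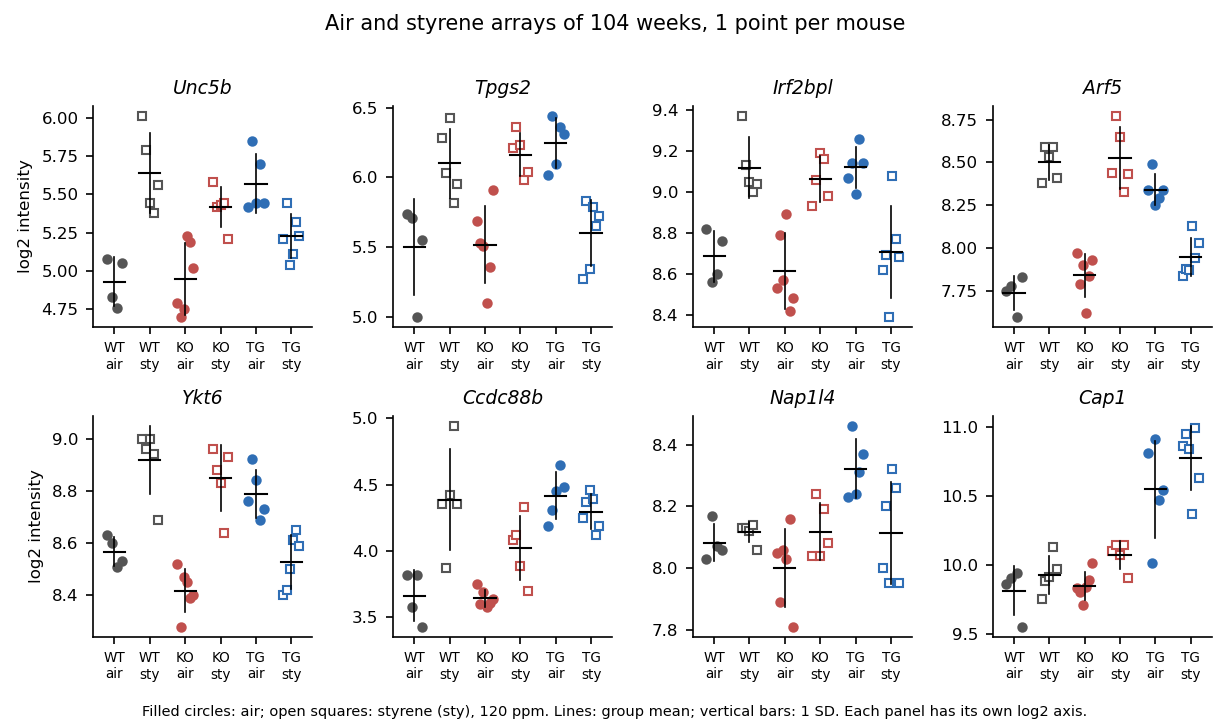
Log2 intensity at 104 weeks in WT, KO and TG lungs in air (filled circles) and 120 ppm styrene (open squares), 1 point per mouse, with means and 1 SD. In Arf5, Tpgs2, Irf2bpl and Ykt6, TG air lies near WT and KO styrene while TG styrene lies near WT and KO air, and Cap1, shown for contrast, is high in TG in both. No gene passed the test between TG styrene and TG air.

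Cd69, an early activation marker of lymphocytes, was 2.50-fold higher in TG (1.32, SE 0.31, adjusted p = 0.0386). TG lungs read 6.03, 5.35, 5.53, 6.94 and 3.94, KO lungs ran from 3.67 through 4.06 to 4.95, and WT lungs read 4.28, 4.51, 3.62 and 3.81. TG replicate 5 lay within the KO range and the other 4 TG lungs above it. The difference was -0.05 at 26 to 78 weeks and 0.70 in styrene (adjusted p = 0.0578), and leaving out 1 lung gave 0.98 to 1.73 with a call in 4 of 11 fits (without TG replicate 2 or 5 or KO replicate 1 or 6), the largest without TG replicate 5. The mean level of the 18 T and NK cell markers was 6.22, 6.83, 6.3, 7.4 and 5.82 in the same TG lungs. The highest and the lowest marker levels among TG lungs were those of the lungs with the highest and the lowest Cd69. Among KO lungs replicate 6 had the highest of both. KO replicate 2 had the lowest Cd69 (3.67) with markers at 5.83, the lowest level, shared with replicate 1. Between these the KO order differed, since replicate 4 had Cd69 at 3.86 with markers at 6.58 and replicate 1 had 4.94 with 5.83. KO lungs had marker levels of 5.83 to 7.23 and WT 5.94 to 6.27, with the highest KO value in replicate 6, the mouse with the tumour note, whose Cd69 was 4.95. None of the 18 passed the test, 15 were higher in TG with a median of 0.30, and Cxcr3 (0.69) and Cd3d (0.69) had an unadjusted p under 0.05 (adjusted p = 0.497 and 0.501). The part of T cell content in the Cd69 difference was not tested. The value of -0.05 for 26 to 78 weeks pooled lungs of unlike Cd69 level. Before 78 weeks, Cd69 read 3.19 to 3.99 in TG air lungs, 3.06 to 4.19 in KO and 3.29 to 3.91 in WT. At 78 weeks it read 5.12 to 5.84 in TG, 4.05, 5.41, 5.19 and 5.56 in KO and 5.5 and 5.27 in WT. The highest KO and WT readings of 78 weeks passed the 5.35 of aged TG replicate 2, but not 6.03 or 6.94. Raised Cd69 was thus not confined to the aged TG lungs.

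Other immune lists had no called gene. All 10 MHC class II genes were higher in TG, with a median of 0.30 against 0.02 for all genes, led by H2-DMb1 (0.70, adjusted p = 0.207) and H2-DMb2 (0.49, adjusted p = 0.393), both of the machinery that loads peptides. The list's mean per lung was 9.52, 9.51, 9.44, 9.34 and 8.73 in TG and 8.4 to 8.92 in KO except replicate 6 at 10.04. That KO lung also had the highest B cell level, 8.12 against 4.54 to 6.72 in the other KO lungs and 5.45 to 7.28 in TG. Among 14 alveolar macrophage markers, Siglecf, a sialic acid receptor, was 0.68 higher without overlap (adjusted p = 0.133), and Marco, a scavenger receptor, was at -1.04 (adjusted p = 0.517). Of 11 alveolar type 2 markers 10 were higher in TG, by small amounts (median 0.16), and 4 had an unadjusted p under 0.05. The lung chemokine Cxcl15 (0.21, adjusted p = 0.382) and the surfactant protein gene Sftpa1 (0.14, adjusted p = 0.539) were among these 4.

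Of the 34 gene lists, 32 held no called gene, and the others held Pttg1 (mitotic cell cycle) and Cd59a (complement). The medians of the lists ran from -0.52, for clock genes, to 0.44, for adipose markers. Pttg1 was the 1 called of 25 mitotic genes, whose median was 0.06. Kif11, a spindle motor, had -0.52 and did not pass. The adipose list had 8 genes tested, among which Ucp1, the uncoupling protein of brown fat, had the smallest p (0.98, adjusted p = 0.356), and its mean per lung overlapped between TG (5.09 to 6.01) and KO (4.39 to 5.83).

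The clock genes, which drive daily rhythms in most tissues, had the lowest median of the lists but no called gene. Of 15 tested, 12 were lower in TG than in KO and 3 higher, and 9 (60%) had an unadjusted p under 0.05 against 8.18% of all genes. The 3 higher genes were Arntl, which encodes the positive clock factor BMAL1, Npas2, its partner, and Nfil3, a repressor. Arntl read 5.61, 5.75, 4.84, 6.21 and 6.74 in TG, 4.28, 4.31, 3.63, 6.74, 5.11 and 4.07 in KO and 6.67 to 7.29 in WT lungs. TG lay between the other lines and overlapped both, since KO replicate 4 read as high as WT. The difference was 1.14 (SE 0.41, adjusted p = 0.356), and leaving out 1 lung gave 0.91 to 1.55 with adjusted p from 0.108 to 0.689.

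The 12 lower genes included Clock (-0.12), whose product is a positive clock factor, and none of them was called. Ciart, a repressor of the clock, read 5.4, 5.67, 5.84, 4.95 and 5.1 in TG, 5.21 to 7.28 in KO and 4.32 to 4.88 in WT lungs (-1.02 for TG minus KO, adjusted p = 0.278). Per2, a period gene, read 6.58, 7.2, 7.58, 6.98 and 6.97 in TG, 7.08 to 8.55 in KO and 6.17 to 6.69 in WT (-0.94, adjusted p = 0.282). Hlf (-0.96) and Tef (-0.63), transcription factors of clock output, had an adjusted p of 0.326. TG again lay between WT and KO, and KO replicate 4 was the KO lung nearest to WT in Arntl, Npas2, Per2, Per3 and Dbp. Against WT, KO had 6 called clock genes, 4 higher and 2 lower (0.198% of all genes called), among them Arntl (-2.26, adjusted p = 0.00238), Ciart (1.80, adjusted p = 0.00254) and Dbp (3.08, adjusted p = 0.012), and TG had 0 by limma (0.357% of all genes called; 6 of 15 clock genes at an unadjusted p under 0.05, against 11.6% of all genes). These comparisons share the KO or the TG arrays with the one described. At 26 to 78 weeks the list's median for TG minus KO was 0.04, with 0 of 15 at an unadjusted p under 0.05 (3.35% of all genes), and in styrene at 104 weeks it was -0.39. With 1 KO lung left out at a time, the median in air ran from -0.38 with 7 of 15 at an unadjusted p under 0.05 (without replicate 3) to -0.71 with 10 of 15 (without replicate 4), and limma called 0 in each of these 6 fits. The sources used here give no hour of death, and its part in these values was not tested.

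**Figure D5:**
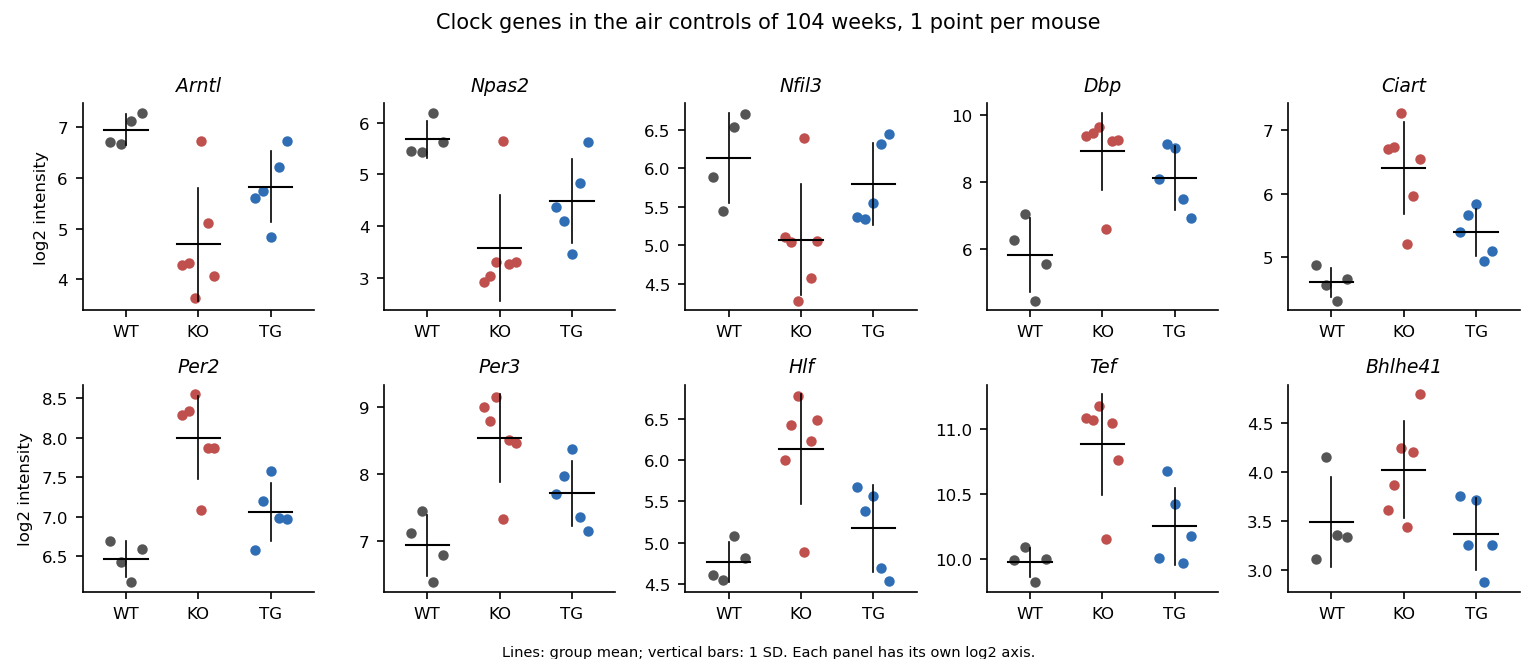
Log2 intensity of 10 clock genes in the air lungs of 104 weeks, 1 point per mouse, with means and 1 SD. TG means lie between WT and KO in 9 panels and slightly below WT in Bhlhe41, and 1 KO lung (replicate 4) lies with WT in Arntl, Npas2 and Dbp.

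Without KO replicate 6, the mouse with the tumour note, 19 genes were called, 12 higher and 7 lower in TG, and 13 of the 18 kept their call. The 5 that did not were 2510003B16Rik (adjusted p = 0.0965), Ccnj (0.0665), Mat2b (0.101), Ykt6 (0.0646) and Ccdc88b (0.0666), each with the same sign. Pttg1 was at 3.17 (adjusted p = 2.4e-09) and Cd69 at 1.47 (adjusted p = 0.0189) in that fit. Over the 11 fits that leave out 1 lung, the number of calls ran from 6, without KO replicate 5, to 25, without TG replicate 1. Pttg1, Tceanc2, Cap1, Zfp691, Unc5b and Nap1l4 were called in every fit of these 11. Those fits took the spread from all groups of the study. With only the arrays compared, Pttg1 kept its call and the others named lost theirs.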

How the data were processed

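RNA of whole lung was measured on 150 arrays, 1 per mouse, of the 154 mice in the stated design. The deposited values are log2 intensities, made by RMA in Partek per the submitters' processing notes, with versions not given in the sources used here. Values lay between 1.74 and 14. An array has no read depth, so precision is set by the number of arrays. Background signal compresses differences of dim genes.

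Groups came from each sample's own labels. Of 45037 probe sets, 28898 had 1 gene in the platform annotation, 551 several (left out) and 15588 were unlisted. Symbols of 28689 were updated through the GRCm38.p6 gene table, also used to find neighbours. The probe set with the highest mean stood for each of 17097 genes, and 15695 above the array's 30th percentile (2.99 to 3.19) in at least 3 arrays were tested. The means of 31 groups and a term for plate 2 were fitted with limma 3.58.1 (R 4.3.3, the package data.table in version 1.17.8), with Benjamini-Hochberg adjustment over all genes and a threshold of 0.05. Each adjusted p is from this fit unless the text names another, such as a fit that leaves out 1 lung. Figures were drawn with matplotlib 3.10.9. Replicate numbers do not pair the lungs (correlations of same-numbered TG and KO deviations from -0.14 to 0.13). Named were all 18 called genes, the 5 highest and 5 lowest calls of the other comparisons, up to 4 list members with the smallest p, Cyp2f2 and its relatives, and called neighbours within 5 Mb. Members, lists and tests were chosen with earlier results of these data known. Alternatives were other filters, probe set rules, array sets, covariates and blocks, and leaving out each array. The fit was tested on simulated data for TG minus KO in air at 104 weeks with 200 of 15695 genes changed. It recovered 60% of genes changed by 0.5 (log2), 96% at 1 and 100% at 2 and 3. The simulated noise was drawn independently for each gene and array, and more genes were changed than the 18 called. These rates therefore need not hold for the real arrays.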

Additional observations from a re-analysis of the deposited data

Results flagged for a closer look

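In 36 genes named here, 108 groups of lungs in air at 104 weeks were searched for 1 lung far from the rest of its group, by Dixon's test at its 95% level, which chance passes in about 5% of groups, and 8 were found. Gdpd3 in TG replicate 2 read 5.27 against 9.39 to 9.84 in the other 4 TG lungs. Med8 read 4.06 in the same lung against 2.79 to 3.04. In KO replicate 4, Npas2 read 5.64 against 2.93 to 3.32 and Per3 7.33 against 8.47 to 9.15. KO replicate 1 stood apart in Nrip2, with 4.3 against 3.52 to 3.81, and in Thg1l, with 3.82 against 3.33 to 3.46. Thg1l also read 3.82 in WT replicate 3, against 4.03 to 4.07 in the other WT lungs. The TG lung of replicate 5 read 3.61 in 2510003B16Rik against 3.31 to 3.38.

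The difference of TG from KO at 104 weeks changed between air and styrene, by a test of that change (limma, adjusted over all genes), for 6 genes named above. The change was -1.3 in Tpgs2, -1.08 in Arf5, -0.87 in Irf2bpl, -0.81 in Unc5b, -0.69 in Ykt6 and -0.32 in Nap1l4. It passed for 25.1% of all genes, and the styrene arrays of TG lay with air arrays. The 6 genes had been called in those same air arrays, so their choice favoured a change against the call.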

How the results depend on the processing

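The 11 TG and KO arrays limit what the comparison can resolve, and most of the 18 calls were lost in at least 1 fit that left out 1 lung. With only the arrays of the groups compared, TG minus KO in air at 104 weeks had 2 calls (Pttg1 and Ccdc88b) in place of 18, 1 with the well column as a block in those 11 arrays and 1 without row A. It had 44 with C57BL/6 arrays alone, 10 after centring each array on its median (6 higher, 4 lower), 152 with the first axis of within-group deviations as a covariate (68 higher, 84 lower) and 57 without mice with a tumour note. With the replicate block, 19 were called, 13 of the 18 among them. The cause of these shifts was not tested. For KO minus WT, 31 calls became 7 with the compared groups alone, 61 with the axis and 13 with the replicate block, for TG minus WT 56 became 6 with the compared groups alone, 125 with C57BL/6 arrays and 641 with the axis, and for the change from air to styrene 3942 became 2561 with the compared groups alone.

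Leaving out 1 array gave 6 to 25 calls for TG minus KO in air at 104 weeks, 17 to 23 at 26 to 78 weeks, 4815 to 7528 in styrene, 0 to 1 for the change with age, 2482 to 5581 for the change from air to styrene, 12 to 50 for KO minus WT (lowest without WT replicate 3 and without KO replicate 3, highest without KO replicate 4) and 15 to 145 for TG minus WT (lowest without WT replicate 3, highest without TG replicate 1). The called genes kept their direction in all 445 values computed under the alternatives. Those fits use all or most of the same TG and KO air lungs, so a kept direction is no independent check. The stricter filter removed Cfl2, 2510003B16Rik, Cd69, Nrip2 and Ccdc88b, which have no value there. Cyp2b10, not called, ran from -0.12 to 0.0098 when 1 array was left out, above 0 without TG replicate 1 alone.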

Other observations

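Among 15588 probe sets with no gene in the annotation used here, 23 were called between TG and KO in air at 104 weeks, 7 higher and 16 lower in TG, and 7 of the 23 were also called at 26 to 78 weeks. Over all 45037 probe sets, 63 were called. That fit had no filter on level. Some of the 16 lower in TG lay below the level asked of genes, such as 1 at 2.34 in TG and 2.71 in KO lungs.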
